A study of Mus musculus with 8 samples.

Results

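The transcripts described here were selected on their levels in 8 mouse testes. A transcript was a member when the lower of its log2 levels in wildtype 7 and mutant 8 lay at least 1 log2 above its highest level in the 6 other testes. This distance is called the gap, and a gap of 1 log2 is a 2-fold distance in signal. The rule left out 13 symbols by name, mainly protamines, transition proteins and fat cell genes. Of 45037 probe sets, which are the groups of short DNA probes that each read 1 transcript, 151 met the gap, or 0.335%. Of these, 10 probe sets of 8 symbols were left out, namely Prm1, Prm2, Tnp1, Tnp2, Car3, Cfd, Scd1 and Adipoq. The members were the remaining 132 transcripts on 141 probe sets, of which 126 had a gene symbol and 6 had none, among 22008 symbols on the array. Since the levels of all 8 testes chose the members, the gap and the height of wildtype 7 and mutant 8 over the others are given as a description with no test.

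The study hybridised total RNA from whole testes of mice at postnatal day 23 to Affymetrix whole-genome mouse expression arrays, 1 array per sample, with 5 wildtype and 3 mutant samples. The question was how loss of Ctcfl, the testis paralogue of the chromatin protein Ctcf, alters the testis. The Ctcfl del allele lacks the exons from the first to the eighth, which Cre-expressing mice cut out after a cross, and the strain background was C57/Bl6. The mutants were Ctcfl del/del. The labels call the controls wildtype, whereas the study's text calls them Ctcfl del/+ littermates, so the controls may carry a single deleted allele. The Ctcfl transcript itself was not analysed here. The sources used here do not say which samples shared a litter or a day of handling, and wildtype 7 and mutant 8 are a pair defined by expression and not by a label. The arrays had medians of 6.40 to 6.45 log2. In RNA of whole testis, a change in the number of cells of a type and a change in RNA per cell cannot be told apart.

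Spermatids are the haploid cells that follow meiosis. Spermatids build the acrosome and flagellum. In the first wave of mouse spermatogenesis round spermatids come first, and elongating spermatids then replace most histones by transition proteins and protamines. Many genes used in this last phase are transcribed in the testis alone and are stored as mRNA for later translation.

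Before the values, the promoters of 4 members that code for chromatin proteins are shown, as examples of promoters with few CG dinucleotides. H2al2a and H2bl1 code for histone variants that spermatids place in condensing chromatin. Hmgb4 codes for a testis protein with HMG boxes, and H1f7 for a linker histone of spermatids. The lines give the 250 bases before each annotated start, 5′ to 3′ on the gene's own strand, from RefSeq on GRCm38.p6, with every CG dinucleotide in capitals.
H2al2a, chr2:17996959-17997208, minus strand: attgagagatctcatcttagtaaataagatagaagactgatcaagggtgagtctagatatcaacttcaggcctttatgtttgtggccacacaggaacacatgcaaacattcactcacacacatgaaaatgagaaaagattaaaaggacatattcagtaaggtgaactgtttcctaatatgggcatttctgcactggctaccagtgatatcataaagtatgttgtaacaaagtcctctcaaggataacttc
Hmgb4, chr4:128260896-128261145, minus strand: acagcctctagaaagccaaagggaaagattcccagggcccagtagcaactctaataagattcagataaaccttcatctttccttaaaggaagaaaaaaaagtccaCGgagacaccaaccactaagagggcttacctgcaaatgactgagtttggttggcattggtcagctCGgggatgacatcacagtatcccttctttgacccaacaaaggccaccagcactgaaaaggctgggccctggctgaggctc
H2bl1, chr13:98984566-98984815, minus strand: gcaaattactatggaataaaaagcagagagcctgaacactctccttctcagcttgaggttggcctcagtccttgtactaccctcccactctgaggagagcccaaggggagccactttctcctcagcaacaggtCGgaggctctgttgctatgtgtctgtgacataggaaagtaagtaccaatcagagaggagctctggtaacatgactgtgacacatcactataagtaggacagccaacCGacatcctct
H1f7, chr15:98257308-98257557, minus strand: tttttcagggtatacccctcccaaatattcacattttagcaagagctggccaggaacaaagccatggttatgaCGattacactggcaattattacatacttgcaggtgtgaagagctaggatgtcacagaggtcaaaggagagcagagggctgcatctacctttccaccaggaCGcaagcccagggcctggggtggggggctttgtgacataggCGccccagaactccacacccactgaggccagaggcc

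These stretches held 0 CG in H2al2a, 2 in Hmgb4, 2 in H2bl1 and 3 in H1f7, against a median of 12 over all array genes in the table. Cdyl, the other chromatin member, has 2 annotated starts and is not printed; the 250 bases before them held 2 and 25 CG. RefSeq promoters were found for 97 members, with 124 windows of 300 bases that run from 250 bases before the start to 50 after it. The members' windows held a median of 3 CG, against 16 in the 16838 windows of 13954 array genes. Their median GC content was 50.2%, against 58.3%. The letters TATAAA, on either strand, were in 14.5% of the members' windows and in 9.67% of all windows. The cAMP response element TGACGTCA was in 2.42% against 2.48%, its shorter form TGACG, which the longer one contains, in 16.9% against 26.3%, and CCAAT in 36.3% against 37.2%. These shares are descriptions of letters in a window and were not tested.

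**Figure D1:**
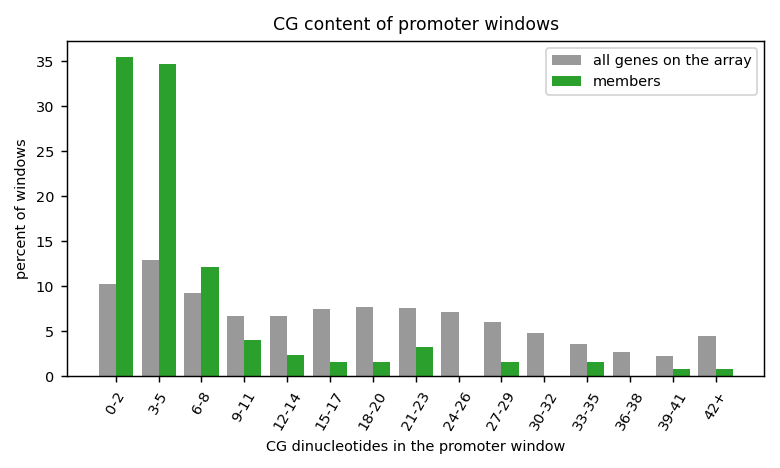
Percent of promoter windows (y axis) by the number of CG dinucleotides in 300 bases (x axis), for the 124 windows of members in green and the 16838 windows of all array genes in grey. The members collect in the lowest bins, with a median of 3 against 16.

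The largest gap belonged to Apoc2, the apolipoprotein that activates lipoprotein lipase. Apoc2 read 4.89, 4.91, 5.37 and 5.17 log2 in wildtype 1, 2, 4 and 6, 4.95 and 4.79 in mutant 3 and 5, and 8.16 and 8.17 in wildtype 7 and mutant 8. The 6 other testes spanned 0.58 log2, against a median of 0.31 over all probe sets. Both raised ones lay at the same height, with a gap of 2.80 or 6.95-fold. RP23-388P16.2 followed with 6.81, 6.89, 7.01 and 6.91 in the 4 other wildtypes, 6.64 and 6.93 in mutant 3 and 5, and 9.75 and 9.64 in the raised pair. It spanned 0.36 log2 in the 6, and a second probe set of the same symbol also met the rule, with a gap of 1.97.

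Fabp4, the fatty acid carrier of fat cells and macrophages, behaved otherwise among the 6. It read 6.03, 6.86, 6.53 and 6.96 in wildtype 1, 2, 4 and 6, 5.12 in both mutant 3 and mutant 5, and 9.61 and 9.16 in wildtype 7 and mutant 8. Its range over the 6, 1.84, was the widest of the members, and both mutants lay below all 4 wildtypes. Of its 4 probe sets 2 met the rule, and the lowest had a gap of -0.15. Cyp2e1, the ethanol-oxidising cytochrome P450 of liver and fat, read 5.11, 5.39, 5.28 and 5.72 in the other wildtypes, 4.90 and 4.73 in mutant 3 and 5, and 7.66 and 7.71 in the pair. Here also the mutants were the lowest of the 6. Kndc1, a guanine nucleotide exchange factor described in neurons, ran the other way, with 5.05, 4.92, 5.08 and 5.02 in the wildtypes, 5.28 and 5.69 in mutant 3 and 5, and 7.65 and 7.95 in wildtype 7 and mutant 8. For Kndc1, mutant 3 and 5 exceeded the other wildtypes, and the single mutant of the pair exceeded its single wildtype. Only 1 of 3 Kndc1 probe sets met the rule, and the lowest gap among them was -0.35.

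Several leading members carry testis names. Cabs1, a calcium-binding protein of spermatids, read 4.91, 5.79, 5.85 and 6.001 in wildtype 1, 2, 4 and 6, 5.27 and 5.37 in mutant 3 and 5, and 8.52 and 7.80 in the pair. Wildtype 1 was the lowest of all, below both mutants. Lemd1, a LEM domain protein known as a cancer/testis antigen, showed this more sharply, with 4.77 in wildtype 1, 5.67 to 5.88 in the other 5, and 8.35 and 7.55 in the pair. Fam71b read 4.16, 4.49, 4.62 and 4.39 in the wildtypes, 4.14 and 4.37 in the mutants, and 7.79 and 6.81 in the pair, where wildtype 7 stood 0.99 above mutant 8.

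The rest of the 20 largest gaps ran from 2.16 down to 1.61. Pex5l, a relative of the peroxisomal import receptor Pex5, had a gap of 1.73. Only 1 of 4 Pex5l probe sets met the rule, and the lowest had a gap of -0.37. Tepp, a gene expressed in testis, prostate and placenta, had 1.68, and Cldn34d, of the claudin family, 1.67. The RIKEN transcripts 1700016C15Rik and 4933400A11Rik, whose functions are not given in the sources used here, had 1.67 and 1.61. Both of a pair of probe sets that have no symbol and share a definition were members, and they read 8.71 and 8.35 in wildtype 7 but 7.31 and 6.78 in mutant 8. A further unnamed probe set had a gap of 1.70, and one that matches several genes, Sirpb1 among them, had 1.74. Of the 126 members with a symbol, 53 had a RIKEN symbol in the file, or 42.1% against 17.6% of all named genes, and 31 still carry one in RefSeq.

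**Figure D2:**
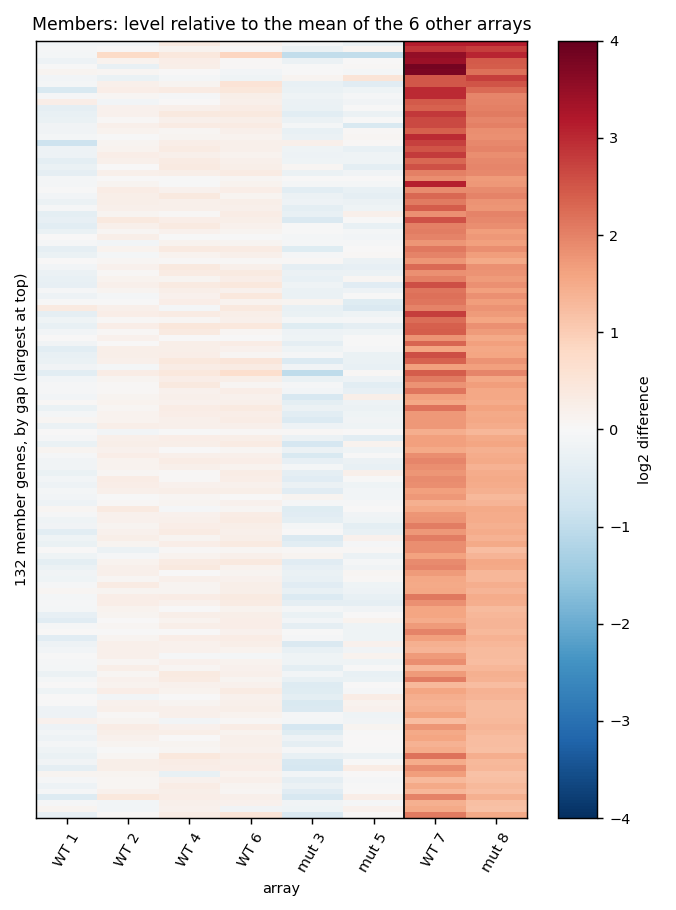
Log2 level of each of the 132 members (rows, largest gap at top) in each testis (columns), minus the member's mean over the 6 other testes; red is higher and blue lower. Wildtype 7 and mutant 8, right of the line, are high by the rule, and among the 6 most blue cells are in mutant 3, wildtype 1 and mutant 5.

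Across the 132 members the gap ran from 1.001 to 2.80 with a median of 1.26, or 2.39-fold. It was at least 1.5 in 34 members and at least 2 in 6. Just inside the threshold were Slfnl1 at 1.003, the Hippo pathway kinase Lats1 at 1.001, and a probe set shared by 4930523C11Rik and Adam6 at 1.001. Just outside were Fam71e1 at 0.998, 4930518C04Rik at 0.997 and 4930571K23Rik at 0.995. The boundary therefore falls between transcripts with almost equal values. For scale, both raised testes lay above all 6 others, by any distance, in 8.61% of all probe sets. The mirror rule, 1 log2 lower, was met by 18 probe sets.

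Most genes with several probe sets were only partly raised. The 37 such members had 96 probe sets, of which 46 met the rule and 64 had a gap above 0. All probe sets met it in 5 genes, while 84 members rested on a single probe set. Some probe sets, including those of H1f7, Odf3, Spaca6, Tex43 and Spata3, have suffixes that mark probes shared by several transcripts.

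Chromatin condensation was the role with the highest share of members. Of 20 measured genes of this list 5 were members, 4 more met the gap but were left out by the rule, 7 had a gap between 0 and 1, and 4 had none above 0. The counts use each gene's largest gap. On the probe set used for list levels, the median gap of the list was 0.94, against -0.22 over all named genes. It includes the genes that met the gap, and the list was written with results known, so the contrast is a description. Over all 20664 named genes 121 were members, 2852 had a gap between 0 and 1, and 17683 had none above 0. H2al2a read 6.08, 6.33, 6.69 and 6.56 in wildtype 1, 2, 4 and 6, 6.40 and 5.93 in mutant 3 and 5, and 8.87 and 8.30 in the pair. Hmgb4 read 7.96, 8.67, 8.54 and 8.52, then 7.72 and 8.27 in the mutants, and 10.81 and 10.20 in the pair. In both genes wildtypes and mutants overlapped among the 6.

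H1f7 separated the genotypes among the 6 on its probe set with the larger gap, with 8.07, 8.63, 8.83 and 8.80 in the wildtypes, 7.88 and 7.998 in mutant 3 and 5, and 10.77 and 10.20 in the pair. These are levels of a probe set with shared probes, and the other H1f7 probe set that met the rule overlapped. It read 7.06, 7.67, 8.02 and 7.84 in the wildtypes, 7.29 and 7.38 in the mutants, and 9.44 and 9.12 in the pair, with wildtype 1 below both mutants. H2bl1 overlapped, with 6.49, 6.97, 7.21 and 7.18 in the wildtypes, 6.34 and 6.84 in the mutants, and 8.96 and 8.69 in the pair. Cdyl, a chromodomain co-repressor that binds methylated histone tails, varied little among the 6. It read 7.66 to 7.87 in the wildtypes, 7.54 and 7.52 in the mutants, and 9.58 and 8.95 in the pair. Both mutants thus lay below the wildtypes among the 6, but only 1 of 3 Cdyl probe sets met the rule and the lowest gap was -0.52. The histone H2A-like genes H2ap and H2al3, neighbours in RefSeq gene order and named after their values were seen, had gaps of 1.47 and 1.35. The other H2ap probe set did not meet the rule, with a gap of -0.14. Cdyl lay 3 places from the member 4933417A18Rik and Odf3 lay 5 places from Cyp2e1. Iqcf1, Iqcf3 and Iqcf4, which code for proteins with a calmodulin-binding motif, lay within 3 places of each other and had gaps of 1.59, 1.15 and 1.20. In all, 9 of 102 protein-coding members had another member within 5 places. The same count for other genes was not made, so this one says nothing on clustering.

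Genes that build the flagellum and the sperm head gave fewer members. In the outer dense fibre, fibrous sheath and mitochondria list 3 of 26 were members and 17 had a gap between 0 and 1. The median gap, on the probe set used for list levels, was 0.52. Odf3, of the outer dense fibres, read 8.62, 9.13, 9.13 and 9.23 in the wildtypes, 8.24 and 9.05 in mutant 3 and 5, and 10.54 and 10.47 in the pair. Mutant 3 was its lowest value and mutant 5 lay among the wildtypes. Spata3, a spermatogenesis gene, met the rule with 3 probe sets at gaps of 1.65, 1.43 and 1.21. Calr3, a testis calreticulin that folds sperm surface proteins, read 4.79, 5.26, 5.47 and 5.47 in the wildtypes, 4.67 and 4.85 in the mutants, and 7.90 and 7.18 in the pair. Of its 3 probe sets 2 met the rule, and the lowest had a gap of -0.86.

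Of 51 axoneme genes 1 was a member, Cfap97d1, a protein of the flagellum, and 30 had no gap above 0. Over all 20664 named genes these counts were 121 and 17683. Cfap97d1 read 5.53, 6.24, 6.36 and 6.62 in the wildtypes, 4.92 and 5.98 in the mutants, and 8.37 and 7.91 in the pair, with a range of 1.69 over the 6. From 38 acrosome and egg binding genes came Izumo1 and Spaca6, both needed for sperm and egg to fuse, while 23 had a gap between 0 and 1. Izumo1 read 8.07, 8.47, 8.45 and 8.52 in the wildtypes, 7.71 and 8.44 in the mutants, and 9.71 and 9.61 in the pair. Spaca6 was one of 5 members higher in mutant 8 than in wildtype 7, at 8.76 against 8.61. This was a probe set with shared probes, and on the Spaca6 probe set without them wildtype 7 was the higher, at 5.39 against 5.28. From 40 cytoskeleton genes came Actrt2 and Ccin, proteins of the perinuclear theca around the sperm nucleus, with gaps of 1.10 and 1.03.

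Signalling and energy genes were mostly below the threshold. Of 35 kinase and phosphatase genes the members were Tssk6, a kinase required for sperm chromatin condensation, Pkib, an inhibitor of cAMP-dependent kinase, and Dusp21, a dual specificity phosphatase. Tssk6 read 5.80, 5.80, 6.07 and 5.96 in the wildtypes, 5.90 and 5.33 in the mutants, and 7.94 and 7.47 in the pair. Pkib and Dusp21 had gaps of 1.21 and 1.05. Gapdhs, the glycolytic enzyme of the fibrous sheath, was the 1 member among 32 energy genes, where 121 of all 20664 named genes were members. It read 9.59, 9.71, 9.76 and 9.75 in the wildtypes, 9.06 and 9.58 in the mutants, and 10.86 and 10.82 in the pair. None of 30 ion channel and transporter genes was a member. A gap between 0 and 1 was found in 17 of them, against 2852 of all 20664 named genes. The lists were written with results of these data in view.

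Genes of protein handling and RNA control completed the roles. Of 39 proteases and inhibitors the members were Cst13, of the cystatin inhibitors, Adam6a, a sperm membrane protein of the ADAM family, and Prss55, a serine protease of sperm. Cst13 read 4.96, 5.06, 4.95 and 5.21 in the wildtypes, 4.81 and 4.95 in the mutants, and 7.97 and 6.95 in the pair, so that wildtype 7 stood 1.02 above mutant 8. Adam6a and Prss55 had gaps of 1.41 and 1.14. Of 36 ubiquitin genes the members were Asb17, a SOCS box protein, Rnf133, a ligase of the endoplasmic reticulum, and Trim42, with gaps of 1.42, 1.35 and 1.09. The chaperone list of 19 gave Calr3 and Dnajb7, a J-domain co-chaperone with a gap of 1.56. Of 41 transcription and RNA control genes 1 was a member, Fhl5, the co-activator of the spermatid transcription factor Crem, with a gap of 1.26. In that list 28 had no gap above 0, against 17683 of all 20664 named genes. Tex55, Tex35, Tex29, Tex43 and Spata3 came from 62 genes with Spata, Tex and like names, at gaps of 1.61, 1.46, 1.17, 1.08 and 1.65. In all, 29 members were in at least 1 role list and 101 in no role or marker list.

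**Figure D3:**
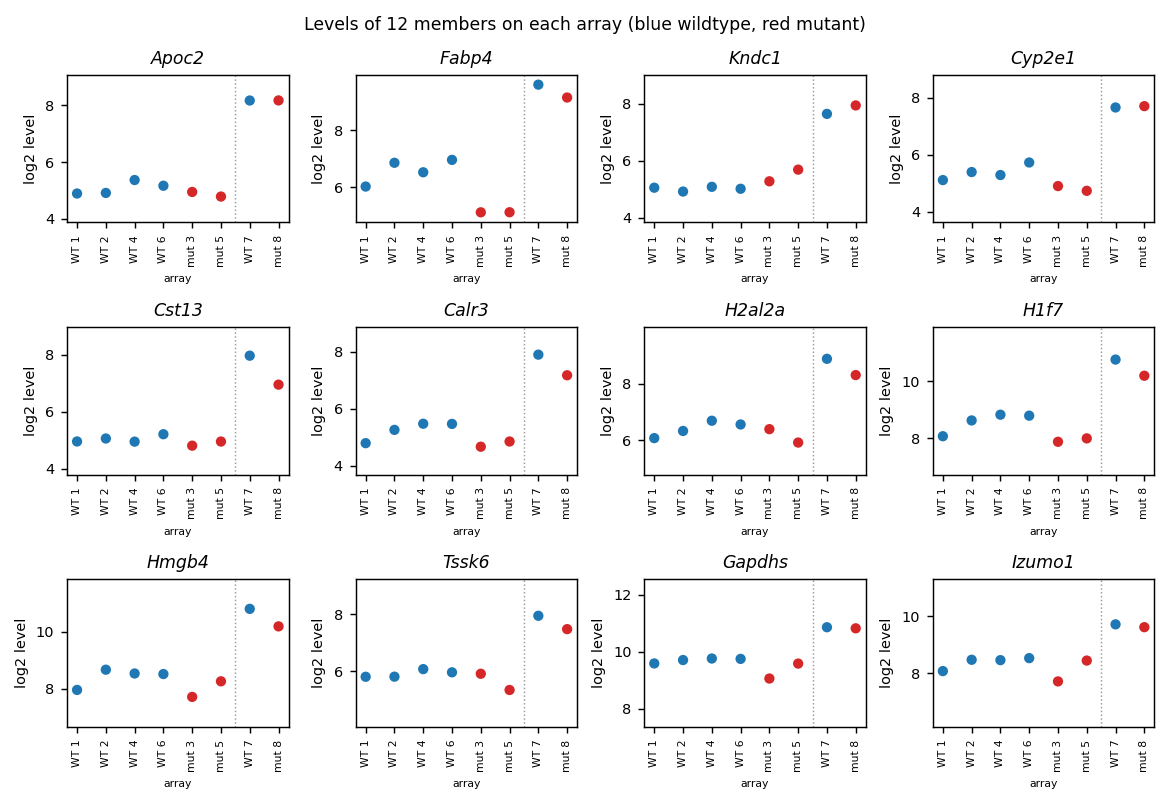
Log2 level (y axis) of 12 members in each testis (x axis), 1 point per array, blue for wildtype and red for mutant, with the raised pair right of the dotted line. The pair is above all other testes in every panel, by the rule; every y axis spans the same log2 distance, and levels are not comparable between panels.

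The members were set beside markers of the cells a whole testis can hold. These lists were written with results known, so the counts and means are a description and no check. Over all 20664 named genes 121 were members and 2852 had a gap between 0 and 1. Of 15 elongating spermatid markers, 5 were members (Tssk6, Gapdhs, H1f7, Cst13 and Spata3), and the other 10 all had a gap above 0. Without members, the mean level of this list was 10.48 in wildtype 7 and 10.28 in mutant 8, against 9.12 to 9.63 in the 6. Of 12 round spermatid markers, Izumo1 was a member and 9 had a gap between 0 and 1. Their mean without Izumo1 was 10.63 and 10.65 in the pair, against 9.88 to 10.30 in the 6. For spermatocyte markers the means were 10.91 and 10.79, against 10.63 to 10.80, so that mutant 8 lay among the 6. The spermatogonia markers were at 8.08 and 8.14, against 8.11 to 8.34, and the Sertoli markers at 9.34 and 9.28, against 9.30 to 9.56.

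Fat cell markers were also higher in the pair. Of 20 such genes, Fabp4 and Aqp7 were members, and Adipoq, Cfd, Car3 and Scd1 met the gap but were left out by the rule. Aqp7, a glycerol channel, is also known from spermatids, and Cyp2e1 is not in the list. The other Aqp7 probe set did not meet the rule, with a gap of -0.09. Without members the list's mean was 7.43 and 7.44 in the pair, against 6.53 to 6.82 in the 6. Without the 4 left out as well it was 6.93 and 6.93, against 6.59 to 6.72. Of the other 14 genes, 8 had a gap between 0 and 1 on their best probe set and 6 had none above 0, Lep and Pparg among the latter. The members thus include fat genes beside spermatid genes, and the part of fat tissue in them was not tested.

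None of the markers of Sertoli, Leydig, peritubular, skeletal muscle, immune, endothelial, red blood cell or epididymis lists was a member. At 121 members in 20664 named genes, lists of this size would mostly hold none. Epididymis markers averaged 6.02 in mutant 8, above the 5.60 to 5.83 of all other testes. The Leydig markers were highest in mutant 3, at 8.78, against 8.22 to 8.44 in all other testes. An RNA quality control differed as well. The Gapdh control's 3′ minus 5′ probe set difference was 0.31 and 0.33 log2 in the pair, against 0.04 to 0.22 in the 6. The same difference for beta-actin was 1.130 in wildtype 7 and 1.026 in mutant 8, against 0.747 to 1.034 in the 6. Mutant 8 thus lay within the range of the 6 for beta-actin. The part of RNA quality in the members' levels was not tested. None of 12 respiratory chain and 12 ribosomal protein genes, taken as general cell genes, was a member or had a gap above 0. Of all 20664 named genes 17683 had none above 0. The ribosomal protein genes averaged 11.16 and 11.07 in the pair, below the 11.29 to 11.38 of the 6, and the respiratory chain genes 12.28 and 12.27, against 12.27 to 12.36.

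**Figure D4:**
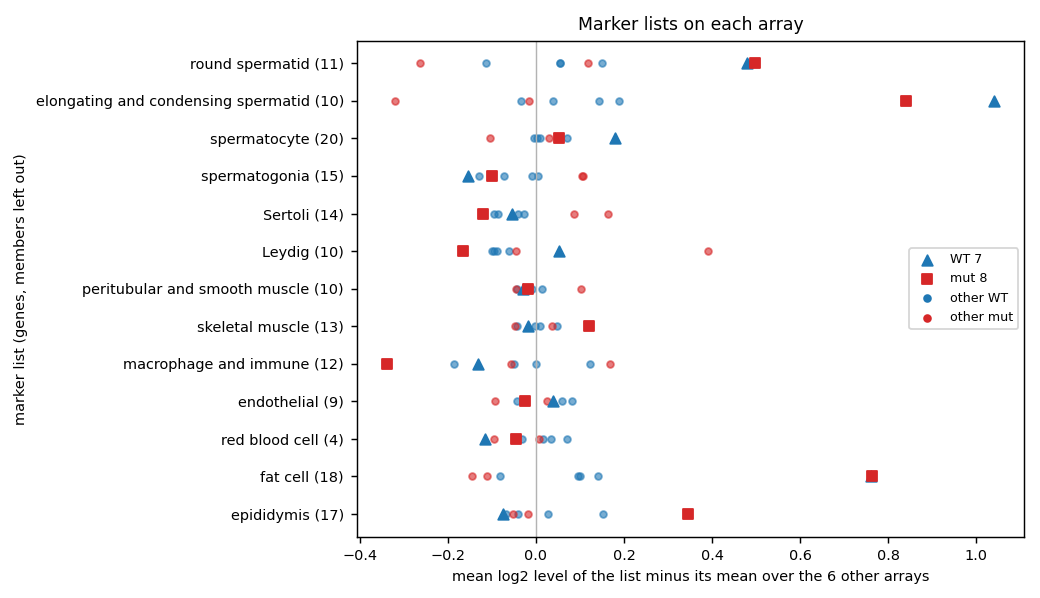
Mean log2 level of each marker list without its members (y axis, number of genes in brackets), minus its mean over the 6 other testes (x axis); blue is wildtype and red mutant, with a triangle for wildtype 7 and a square for mutant 8. The spermatid and fat cell lists lie to the right in both raised testes, and no other list lies right of the 6 in both.

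Within the pair, wildtype 7 was above mutant 8 for 127 of 132 members, against 45.1% of all probe sets. The median difference was 0.33 log2, and it ran from -0.30 for Kndc1 to 1.57 for one of the paired probe sets with no symbol. It was at least 1 in 7 members, among them Cst13 and 1700016C15Rik. Apoc2, Cyp2e1, Spaca6 and 1700010H22Rik were the other members below 0, Apoc2 by a difference within rounding. With a single array of each genotype in the pair, these differences have no replicate.

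Among the 6 other testes the members were not uniform. Their range over the 6 had a median of 0.64, against 0.31 over all probe sets, and ran from 0.18 to 1.84. At the low end lay Lancl1, a glutathione-binding protein, which stayed within 6.90 to 7.08. Mutant 3 was the lowest of the 6 for 71 members, against 16.5% of all probe sets. Wildtype 1 was the lowest for 29, against 16.3%, and mutant 5 for 25, against 18.0%. Wildtype 6 was the highest for 58 members, against 16.8%, and wildtype 4 for 45, against 21.2%. The median level over members was 6.36 in wildtype 1, 6.81 in wildtype 2, 6.84 in wildtype 4, 6.91 in wildtype 6, 6.39 in mutant 3 and 6.48 in mutant 5, beside 8.70 in wildtype 7 and 8.29 in mutant 8. Wildtype 1 therefore lay below both mutants of the 6, and the genotypes overlapped in this median. Taken member by member against the mean of the 6, mutant 3 was the lowest testis, with a median of -0.25, before wildtype 1 at -0.13 and mutant 5 at -0.11. Members vary together, so counts of members are not counts of independent observations.

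To compare the genotypes, limma was fitted to all 45101 probe sets with a term for the raised pair, which takes the gap out of the genotype difference. The same 8 testes chose the members, so the values below are a description of the members and not independent of the rule. The difference then comes from mutant 3 and 5 against the 4 other wildtypes and from mutant 8 against wildtype 7. On the probe set with the largest gap of each member, none passed a limma adjusted p of 0.05, and the smallest was 0.58. Over all probe sets 1 passed, or 0.00222%, which was no member. At unadjusted p under 0.05, 75 members were lower in the mutant, against 2.83% of all probe sets, and 1 was higher, against 3.03%. The fitted difference was below 0 in 130 of 132 members, with a median of -0.32, against 0.01 over all probe sets. It ran from -1.20 to 0.42.

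The study's own methods name no such term. In a fit without it the median was -0.070 and no member reached unadjusted p under 0.05. In that fit 1 of 3 mutant and 1 of 5 wildtype arrays are raised, so a share of the gap that chose the members enters the difference and its spread. In the 6 other testes alone the median was -0.30. Both mutants lay below all 4 wildtypes for 36 members, against 6.98% of all probe sets, and above them for 1, against 7.9%. No member passed there either, with a smallest limma adjusted p of 0.68.

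On the probe set with the largest gap of each member, the smallest unadjusted p belonged to Gm4787, 4933411K16Rik and Chn2. Gm4787 read 7.19, 7.50, 7.56 and 7.60 in wildtype 1, 2, 4 and 6, 6.72 and 6.95 in mutant 3 and 5, 9.38 in wildtype 7 and 8.73 in mutant 8. Mutant 3 and 5 lay below the 4 other wildtypes. Mutant 8 lay below wildtype 7, a comparison of 1 array of each genotype. The difference was -0.63 ± 0.10 (SE, n = 3 mutant and 5 wildtype, limma adjusted p = 0.58). For 4933411K16Rik the levels were 7.88, 8.18, 8.10 and 8.25 in the wildtypes, 7.56 in both mutants, 9.74 in wildtype 7 and 9.37 in mutant 8. Its difference was -0.50 ± 0.09 (SE, limma adjusted p = 0.68). Chn2, a GTPase-activating protein for Rac, had 7.04, 7.29, 7.30 and 7.28, then 6.69 and 6.91, and 9.49 and 8.84 in the pair. Mutant 3 and 5 again lay below the other wildtypes, and mutant 8 below wildtype 7. The difference was -0.49 ± 0.09 (SE, limma adjusted p = 0.68). The other Chn2 probe set did not meet the rule, with a gap of -0.23.

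Fabp4 had the lowest fitted difference, -1.20 ± 0.23 (SE, limma adjusted p = 0.70). Its second probe set that met the rule gave -1.06 ± 0.15 (SE, limma adjusted p = 0.45), a lower adjusted p than that of Gm4787. Kndc1 was the only member higher at unadjusted p under 0.05, by 0.42 ± 0.10 (SE, limma adjusted p = 0.80), and Lancl1 was the only other above 0, by 0.01 ± 0.07. The fitted difference of H1f7 was -0.62 ± 0.15 (SE, limma adjusted p = 0.80) on the probe set with shared probes and -0.31 ± 0.18 (SE, limma adjusted p = 0.89) on the other. That of Actrt2 was -0.39 ± 0.09 (SE, limma adjusted p = 0.80). None of these differences passed the adjusted threshold.

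**Figure D5:**
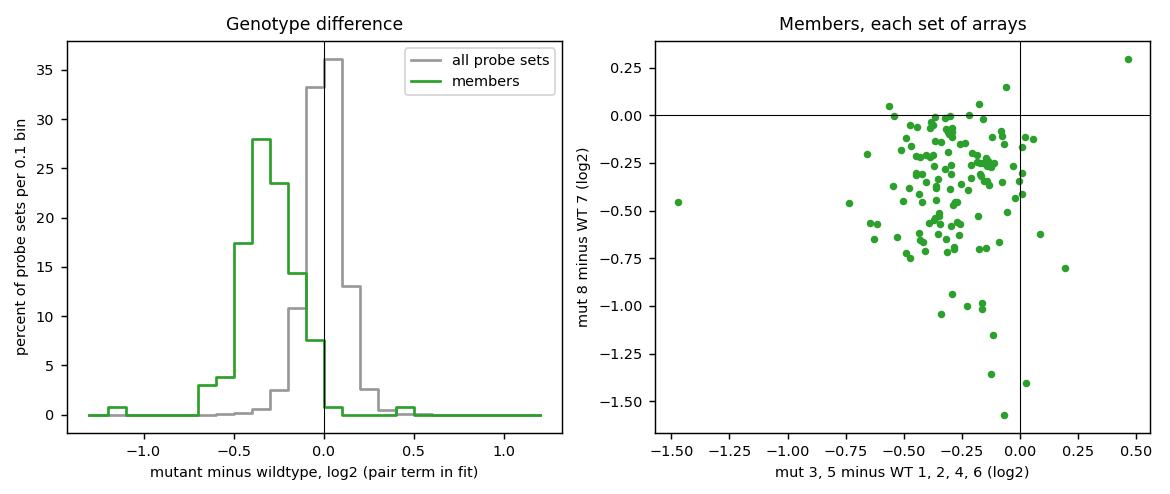
Left, percent of probe sets (y axis) by the fitted mutant minus wildtype difference in log2 with a term for the raised pair (x axis), for members in green and all probe sets in grey. Right, each member's difference in the 6 other testes (x axis) against mutant 8 minus wildtype 7 (y axis); most points lie below 0 on both axes, with medians of -0.30 and -0.33.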

How the data were processed

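The authors corrected and normalised the array intensities by RMA with quantile normalisation and deposited log2 levels, 1 column per testis. The annotation's genome build is not given in the sources used here. The authors' own comparison columns (fold changes and p-values) were not used.

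Members and gene lists were chosen with earlier results of these data known. The 64 control probe sets were left out of the rule. A gene's values are those of its probe set with the largest gap. List levels and median gaps of lists use the probe set without a shared-probe suffix and with the highest mean. Current names came from RefSeq for 116 of 120 members with a single Entrez ID, which renamed 28. Named genes were the 20 largest gaps, up to 5 members per role list, 3 on each side of the threshold, up to 3 members per direction with the smallest genotype p, and marker list members. Other names were chosen after their values were seen.

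Genotypes were compared with limma 3.58.1 (R 4.3.3). Tests were two-sided, and p-values were adjusted over all probe sets by the method of Benjamini and Hochberg. The script was tested on simulated data. The study calls the animals littermates, but which samples share a litter or a preparation is not given in the sources used here, so p-values measure only the spread between these samples, and 8 arrays limit the precision. Promoter windows of a gene with starts within 100 bases were counted once. Protein features were not analysed here. Alternatives changed the threshold, centring, normalisation, scale, filter, covariate, weights, prior and arrays.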

Additional observations from a re-analysis of the deposited data

Results flagged for a closer look

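Among 5 wildtype testes, a sample was listed when its gap to the nearest other, divided by the whole range of the group, exceeded 0.71. Of 15 summary levels examined, 3 were listed, and the 3 mutants were too few to examine. Chance lists about 1 in 20, but wildtype 7 was picked from these same expression values. The marker lists were also written with results known, so the listings are a description and that rate is no measure of them. Wildtype 7 stood apart for elongating spermatid markers without members, at 10.48 against 9.63 in the nearest wildtype. It stood apart for fat cell markers without members, at 7.43 against 6.82, and for Leydig markers, at 8.44 against 8.32. The fat cell list still holds 4 genes that met the gap and were left out by name. Without them wildtype 7 read 6.93 against 6.72, a ratio of 0.66, which is below the limit. For single members the ratio was exceeded by 114 of 132, which follows from the rule that chose them.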

How the results depend on the processing

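The number of members depended on the threshold and the scale. A gap of at least 0.5, 1.5 or 2 gave 534, 34 or 6 genes in place of 132. Adding 64 on the linear scale left 55, and probe sets above the median level left 87. Centring each array on its median gave 140 genes, including all 132, and a repeated quantile normalisation gave 137, including 129. Requiring every probe set of a gene without a shared-probe suffix left 100. Leaving out each array in turn gave 133 to 280 genes, all including the 132, with 280 without mutant 8. Leaving out an array cannot lower a gap, so the rule itself keeps the 132.

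The median genotype difference of members was -0.070 without the term for the pair and ran from -0.38 to -0.26 when each array was left out in turn, and no alternative reversed it. Members at unadjusted p under 0.05 fell from 76 to 0 without the term, to 49 of 87 tested above the median level, and ran from 51 to 102 when arrays were left out, lowest without mutant 3 and highest without wildtype 1. Leaving out either array of the raised pair gives the fit of the 6 others. No alternative gave a member past the adjusted threshold. The single call over all probe sets became 0 without the term, in the 6 other arrays, after repeated quantile normalisation and with the added 64, and was 0 to 0 when each array was left out.

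No paired analysis was possible because the sources used here do not say which samples share a litter. The number of arrays, 3 mutant and 5 wildtype, limits every comparison of genotypes. Signal over background was not analysed here, and 60 members averaged below the median of all probe sets, 6.43, on the 6 other arrays.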
